A study of Rattus norvegicus with 74 samples.

Results

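Cox7a1, the heart and muscle isoform of subunit VIIa of cytochrome c oxidase, was followed across whole skeletal muscle, isolated muscle mitochondria and heart of sedentary and trained rats. It was found by its symbol in each of 3 gene count tables and is 1 gene (ENSRNOG00000050015) of the 30560 that the tables list. The gene was chosen by its values in these tables, with earlier results known; which of its contrasts decided the choice is not recorded, so every one counts as used, and its own levels and fold changes are given as a description, with standard errors and no p-value. Tests are reported for its paralogs and for the other genes of the complex. Relations of Cox7a1 with other measures between libraries carry q values, but they use the values of the chosen gene and are no independent support.

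All rats were wild-type male Wistar Kyoto rats, 9 weeks old when sampled. Trained rats (ExT) ran on a motorised treadmill for 4 weeks from 5 weeks of age, on 5 days a week, for up to 60 min at up to 20 m/min. Sedentary rats (Sed) were placed on a stationary treadmill instead. Both arms drank water with 8% deuterium oxide and lived in pairs, and all were sampled 24 h after training had ended. From the inner, red gastrocnemius came whole-muscle libraries (SM) and libraries of mitochondria (MT), which were pulled from the muscle by immunoprecipitation and digested with RNase-A plus proteinase-K before RNA extraction. The left ventricular wall gave LV libraries. The SM and MT groups (SM_Sed, SM_ExT, MT_Sed, MT_ExT) had 15 libraries each and the heart groups (LV_Sed, LV_ExT) 7 each, 74 in all, and SM, MT and LV libraries of 1 number came from the same rat.

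Cytochrome c oxidase, complex IV, is the last enzyme of the respiratory chain and passes electrons to oxygen. Its catalytic core is made from the mitochondrial genome (Mt-co1, Mt-co2 and Mt-co3), and the surrounding subunits are made from nuclear genes and imported. Several of these exist as a pair of isoforms, one found in most tissues and one in contractile tissue, as with Cox6a1 and Cox6a2 or Cox7a2 and Cox7a1. Oxidative muscle fibres and cardiomyocytes are rich in the enzyme. Cox7a2l belongs to the same subunit family and is known for its part in respiratory supercomplexes, in which complex IV is joined to complex III.

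Total counts per library were 19477976 to 39401323 in SM, 530397 to 9988027 in MT and 54645657 to 75758777 in LV. SM libraries were made from 50 ng of RNA and MT libraries from 10 ng with a Zymo kit, and LV libraries from 100 ng with an Illumina Ribo-Zero kit. Input and depth, and for LV also the kit, thus cannot be told apart from sample type. Levels are counts per 1000000 nuclear-encoded counts (CPM): the 37 genes of the mitochondrial genome were left out of the total, because they took 22.1 to 35.9% of the counts in SM_Sed and 12.9 to 92.2% in MT_Sed. Fast skeletal fibre genes summed to between 80210 and 146858 CPM in SM and at most 6.47 CPM in LV. Myh6, the main myosin heavy chain of the rodent ventricle, was at 27234 CPM or more in every LV library and at 21.3 CPM or less in every SM library. Whole-tissue libraries cannot tell more cells of a type from more RNA per cell.

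RefSeq (GRCr8) promoter windows, each holding 250 bases before and 50 after the annotated start, are shown for Cox7a1, for its paralog Cox7a2l and for Cox6a2, the other contractile-tissue isoform described here, because these isoforms are set side by side in the results. Capitals mark each E-box (CANNTG, which reads the same on both strands), the motif bound by muscle basic helix-loop-helix factors. The windows lie at chr1:94568966-94569265 on the plus strand, chr6:16936324-16936623 on the plus strand and chr1:192219667-192219966 on the minus strand.
Cox7a1: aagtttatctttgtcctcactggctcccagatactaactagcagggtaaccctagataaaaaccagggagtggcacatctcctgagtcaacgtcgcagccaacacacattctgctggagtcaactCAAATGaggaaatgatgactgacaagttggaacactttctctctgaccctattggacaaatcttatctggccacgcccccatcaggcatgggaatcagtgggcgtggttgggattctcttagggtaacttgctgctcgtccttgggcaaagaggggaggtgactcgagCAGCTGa
Cox7a2l: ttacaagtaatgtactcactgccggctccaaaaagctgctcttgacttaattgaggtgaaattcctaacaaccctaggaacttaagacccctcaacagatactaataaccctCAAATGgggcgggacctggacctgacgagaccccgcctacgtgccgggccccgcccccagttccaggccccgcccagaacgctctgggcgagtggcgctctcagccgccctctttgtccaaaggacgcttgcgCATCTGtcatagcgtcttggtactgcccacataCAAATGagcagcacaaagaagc
Cox6a2: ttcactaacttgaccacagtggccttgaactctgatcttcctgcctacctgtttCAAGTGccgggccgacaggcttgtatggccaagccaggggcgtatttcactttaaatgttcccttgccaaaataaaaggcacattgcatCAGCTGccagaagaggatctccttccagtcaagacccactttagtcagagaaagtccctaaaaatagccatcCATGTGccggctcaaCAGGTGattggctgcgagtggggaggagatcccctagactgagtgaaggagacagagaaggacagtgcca

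The Cox7a1 window held 2 E-boxes, Cox7a2l 3 and Cox6a2 4. At least 2 were present in 38.6% of the 33469 RefSeq windows of the same length, at least 3 in 16.6% and at least 4 in 5.79%. The Cox7a1 window had 1 match to an AP-1 motif (TGANTCA), found in 7.33% of windows, and 3 to a CACCC-type box (CCNCNCCC), a number reached by 16.7% of windows. Cox7a2l also had 3 CACCC-type matches, of which neighbours overlap, and Cox6a2 had none. A MEF2 motif, found in 3.29% of windows, matched once in Cox6a2 and in neither of the others. None of the 3 windows held the ETS (CCGGAAG), NRF-1 or ERR (AAGGTCA) letters, which were searched on both strands like the rest. These are matches of letters only.

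Cox7a1 was lowest in sedentary muscle, higher in trained muscle, higher again in heart and highest per nuclear-encoded count in mitochondrial libraries. In SM_Sed the lowest, median and highest libraries had 40, 80 and 130 counts, or 2.17, 4.30 and 6.28 CPM, with a mean of 4.19 ± 1.26 CPM (SD, n = 15). In SM_ExT they had 76, 129 and 255 counts, or 4.31, 7.32 and 12.9 CPM, with a mean of 7.31 ± 2.30 CPM (SD, n = 15). The trained and sedentary ranges overlapped between 4.31 and 6.28 CPM.

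Relative to its mean, the gene was steadiest in the sedentary heart, while LV_ExT had a wider spread. LV_Sed ran from 10.5 through a median of 12.1 to 14.003 CPM (379 to 528 counts), with a mean of 12.1 ± 1.27 CPM (SD, n = 7). LV_ExT ran from 8.21 through 10.7 to 15.9 CPM (311 to 561 counts), with a mean of 11.6 ± 2.65 CPM (SD, n = 7). The 2 heart groups lay over each other and both SDs exceeded the gap of their means, so no order can be given between them.

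MT libraries held few Cox7a1 counts at their lower depth: 17 to 44 in MT_Sed, with a median of 28, and 13 to 39 in MT_ExT, also with a median of 28. Per nuclear-encoded count these came to 22.8, 36.4 and 57.7 CPM in the lowest, median and highest MT_Sed library (mean 38.8 ± 9.74, SD, n = 15) and to 25.7, 43.1 and 60.4 CPM in MT_ExT (mean 41.5 ± 9.85, SD, n = 15). The 2 MT groups did not differ beyond their spread. The order of heart and MT depends on the scale. With 1 set of TMM factors over all 74 libraries, MT_Sed (8.50 ± 2.08 CPM) and MT_ExT (9.11 ± 2.17 CPM) fell to between SM_ExT (7.62 ± 2.52) and LV_Sed (10.1 ± 1.36). The step from SM_Sed (4.43 ± 1.25) to SM_ExT kept its direction on that scale.

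**Figure D1:**
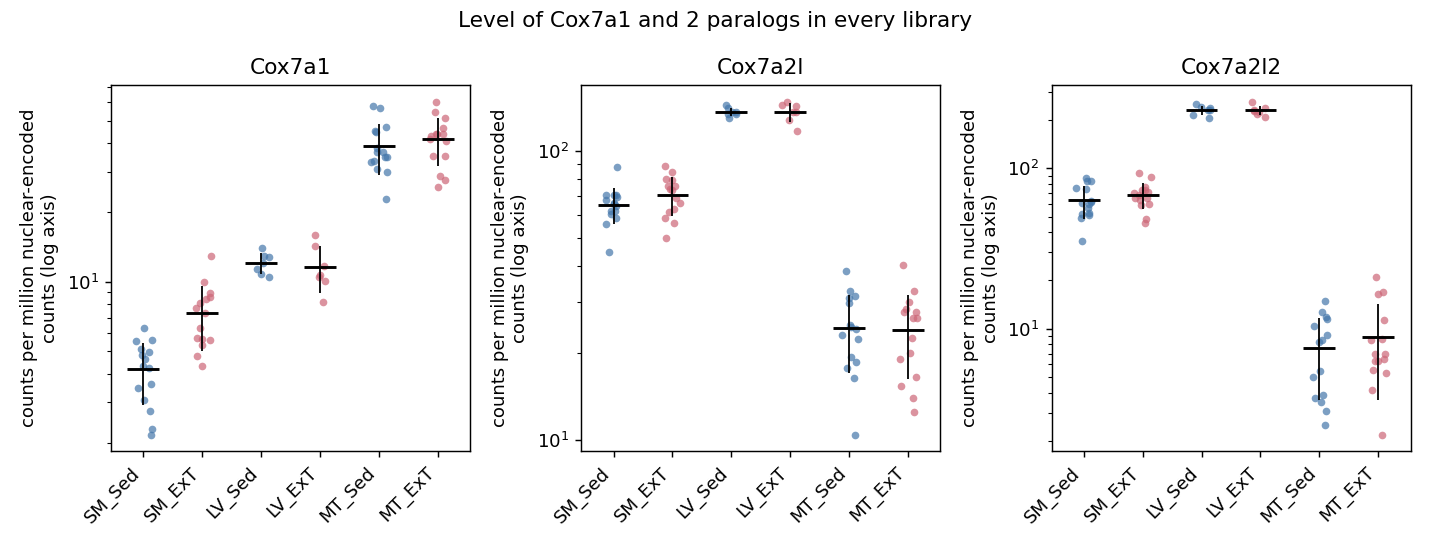
Level of Cox7a1, Cox7a2l and Cox7a2l2 in each library by group, in counts per 1000000 nuclear-encoded counts on a log axis; each point is 1 library, the horizontal bar the mean and the vertical line ± SD. Cox7a1 means ran from 4.19 in SM_Sed to 41.5 in MT_ExT, whereas both paralogs were lowest in MT.

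Counting error alone was sizeable at these depths. The lowest SM_Sed library, rat 4, had 42 Cox7a1 counts, and its 95% Wilson interval was 1.61 to 2.94 CPM around 2.17 CPM. Such intervals treat reads as independent and leave out differences between rats. PCR copies of a molecule are counted as separate reads, so the intervals may be too narrow even for counting error.

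The paralog Cox7a2l (ENSRNOG00000004526) was at 65.1 ± 9.30 CPM in SM_Sed and 70.3 ± 10.95 CPM in SM_ExT (SD, n = 15 each), from 44.7 to 87.9 and from 50.0 to 88.6 CPM. In heart it was at 137 ± 4.71 CPM in LV_Sed and 136 ± 10.5 CPM in LV_ExT (SD, n = 7 each), and every LV library lay above every SM library. In MT it was at 24.4 ± 7.37 CPM in MT_Sed and 24.0 ± 7.77 CPM in MT_ExT, below every SM library. Cox7a2l2 (ENSRNOG00000042903), a related entry added after the tables were seen, followed the same order, with means of 63.0 and 68.1 CPM in SM, 230 and 230 CPM in LV and 7.63 and 8.87 CPM in MT for Sed and ExT. Whether reads were split between Cox7a2l and Cox7a2l2 was not tested and their sequences were not compared, so their separate levels are uncertain. Cox7a2 is not analysed here.

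Cox7a1 was higher in trained than in sedentary whole muscle, and its training values in heart and mitochondria were near 0 on the log2 scale. In SM, 8 of 15 ExT libraries lay above the highest Sed library, and 8 of 15 Sed libraries lay below the lowest ExT library. Trained libraries were above sedentary ones in 90.7% of all pairs. The ratio of means was 1.75, and the fitted log2 fold change was 0.75 (SE 0.145).

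That difference was present in both ranges of rat numbers and larger in the first. Among rats 2 to 16 the means were 8.83 ± 2.43 CPM in ExT and 3.86 ± 1.36 CPM in Sed (SD, n = 7 each), and 6 of 7 ExT libraries lay above the highest Sed library. Among rats 17 to 32 the means were 5.99 ± 1.10 and 4.47 ± 1.18 CPM (SD, n = 8 each), and 2 of 8 ExT libraries lay above the highest Sed library. The log2 fold change was 1.11 (SE 0.197) in the first range and 0.40 (SE 0.156) in the second. The difference between the ranges was not tested, and no label calls them batches.

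In MT the log2 fold change of Cox7a1 with training was 0.10 (SE 0.127), and 1 of 15 ExT libraries lay above the highest Sed library. In LV it was −0.01 (SE 0.128), with 2 of 7 ExT libraries above and 3 of 7 below all Sed libraries. The training difference in LV minus that in SM of the same 14 rats was −0.61 (SE 0.210) on the log2 scale, and MT minus SM was −0.68 (SE 0.203). The MT minus SM value was −1.04 (SE 0.286) in rats 2 to 16 and −0.31 (SE 0.236) in rats 17 to 32.

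The neighbours of Cox7a1 in the complex moved little with training. Over all genes, edgeR's quasi-likelihood test with Benjamini-Hochberg adjustment called 28 of 13570 genes in SM, 0.206%, at an adjusted p under 0.05. Of the 14 other listed nuclear complex IV subunit genes in the tables, 12 were tested in SM and 0 were called, with 2 at an unadjusted p under 0.05 and 0 called by DESeq2. Their median log2 fold change was 0.06, against −0.01 for all genes, and the range was −0.02 to 0.16. Cox4i1, the common form of subunit IV, had the largest at 0.16 (SE 0.0659, adjusted p = 0.280), and Cox5a followed at 0.14 (SE 0.0612, adjusted p = 0.301).

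Both paralogs missed the threshold in SM. The log2 value was 0.06 for Cox7a2l (SE 0.0716, adjusted p = 0.763) and also 0.06 for Cox7a2l2 (SE 0.0937, adjusted p = 0.817). Cox6a2, the other contractile-tissue isoform, was at 219 ± 52.6 CPM in SM_Sed and 225 ± 79.1 CPM in SM_ExT, with a fitted value of −0.02 on the log2 scale (SE 0.153, adjusted p = 0.978).

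The core subunits of the mitochondrial genome, Mt-co1, Mt-co2 and Mt-co3, had positive values of 0.13 to 0.22 in SM, and 0 of 3 passed (smallest adjusted p = 0.430, 0 at an unadjusted p under 0.05, 0 by DESeq2). Of 26 listed assembly factors, which insert copper and heme and mature the subunits, 19 were in the tables, 17 were tested in SM and 0 were called (median 0.08, range −0.16 to 0.24, smallest adjusted p = 0.122, 2 at an unadjusted p under 0.05, 0 by DESeq2). With rats 2 to 16 alone, where 396 of 13423 genes were called and 290 of these were higher, 2 assembly factors were called higher.

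In LV 0 of 14488 genes were called, 0%, with 855 at an unadjusted p under 0.05 and 0 by DESeq2. Among 12 tested subunit genes the median log2 fold change was 0.01 and the range −0.09 to 0.04, with 0 at an unadjusted p under 0.05. Cox7a2l was at 0.04 (SE 0.0516, adjusted p = 0.925). In MT 0 of 19281 genes were called, 0%, with 905 at an unadjusted p under 0.05 and 0 by DESeq2. There 8 of the 14 subunit genes had enough counts to be tested, with values of −0.35 to 0.16 and 0 at an unadjusted p under 0.05. Cox7a2l was at −0.01 (SE 0.162, adjusted p = 1.00).

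**Figure D2:**
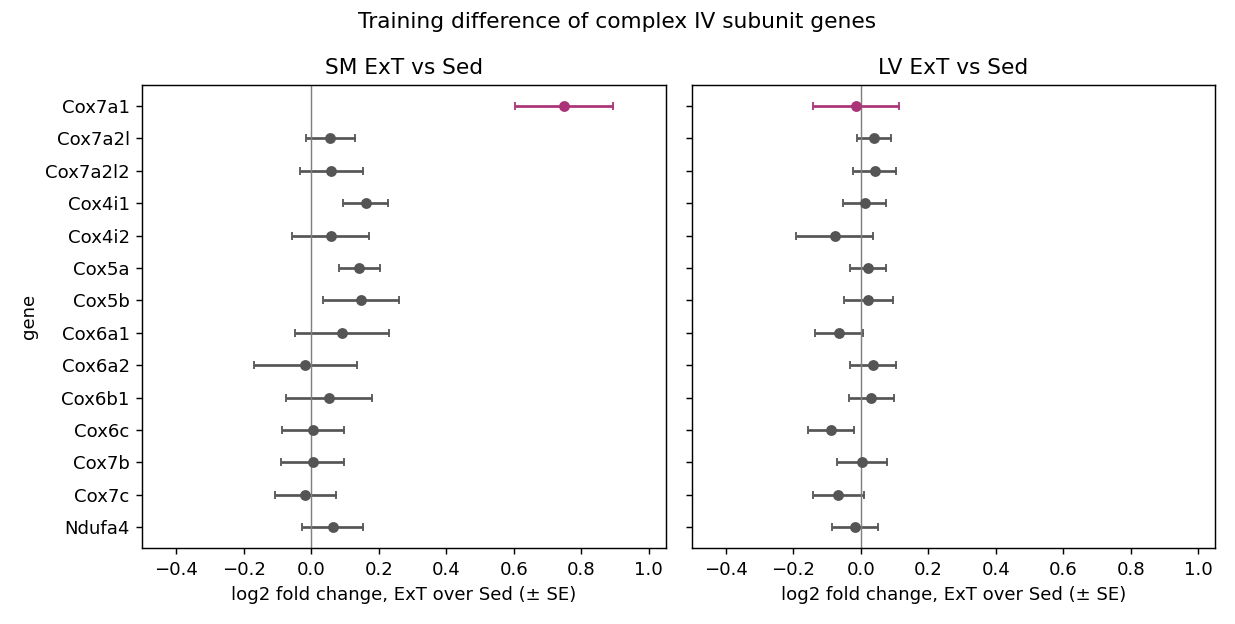
Log2 fold change of ExT over Sed with its SE for Cox7a1 (purple), the 2 paralogs and 11 other nuclear complex IV subunit genes, in SM at left and LV at right. Cox7a1 stood at 0.75 in SM, where the listed subunit genes lay between −0.02 and 0.16, and at −0.01 in LV.

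For the training difference itself compared between sample types, 5 of 27684 genes were called for MT minus SM, 0.0181%, and 3 with the rat as a replicate block. For LV minus SM 0 of 15049 were called, 0%, with 687 at an unadjusted p under 0.05 and 3 called by DESeq2. By edgeR and by DESeq2, 0 of the 14 subunit genes passed in the first (1 at an unadjusted p under 0.05) and 0 of the 12 tested in the second (0 at an unadjusted p under 0.05). Cox7a2l was at −0.10 (SE 0.176) for MT minus SM and 0.09 (SE 0.111) for LV minus SM, both with an adjusted p of 1.00.

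The share of Cox7a1 among nuclear complex IV counts was above the whole sedentary range in most trained muscles. It was 0.129 ± 0.0337% of the summed counts of the 15 listed subunit genes in SM_Sed and 0.204 ± 0.0428% in SM_ExT (SD, n = 15 each), and 9 of 15 ExT libraries exceeded the highest Sed library. Per 100 Cox7a2l counts there were 6.39 ± 1.62 Cox7a1 counts in SM_Sed and 10.3 ± 2.28 in SM_ExT, and 10 of 15 ExT libraries exceeded all Sed libraries. In heart the ratio was 8.83 ± 0.871 in LV_Sed and 8.53 ± 1.85 in LV_ExT (SD, n = 7 each). These ratios are of raw counts within a library and are read across groups only, because the genes differ in length. Uncorrected for length, the Cox7a1 mean of 4.19 CPM in SM_Sed was near that of Cox4i2 (4.82 CPM). It was far below those of Cox6a2 (219 CPM) and Cox4i1 (612 CPM). Why a muscle isoform had so few counts was not tested, and the origin of its reads was not checked.

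A tested isoform ratio gave another pattern. The mean log2 ratio of Cox6a2 to Cox6a1, the contractile-tissue over the common form, was 2.63 in SM_Sed and 2.53 in SM_ExT, a difference of −0.10 (permutation test with 100000 resamples, two-sided, p = 0.114, q = 0.228 over 8 ratio tests, n = 15 each). In LV the ratio was 3.28 in Sed and 3.38 in ExT, a difference of 0.10 (exact permutation test, p = 0.0833, q = 0.222, n = 7 each). The ratio of Cox4i2, the hypoxia-linked form, to Cox4i1 did not pass in any of 4 comparisons (q from 0.627 to 0.770). The planned ratios with Cox7a2, and of Cox8b to Cox8a, were not analysed here.

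Markers of fibre type and of other cell types were uneven between the SM arms. All 8 slow-fibre genes had positive log2 fold changes with training (median 0.34, 0 called, smallest adjusted p = 0.543, 0 at an unadjusted p under 0.05, 0 by DESeq2), and their summed level was 6076 to 37160 CPM in Sed (median 18019) and 6985 to 40241 CPM in ExT (median 25343). Of 7 fast-fibre genes 6 had negative values (median −0.27, 0 called, smallest adjusted p = 0.175, 6 at an unadjusted p under 0.05, 0 by DESeq2), and their summed level was 80613 to 146858 CPM in Sed (median 112905) and 80210 to 121699 CPM in ExT (median 102362). The exception was Myh2, the myosin of fast oxidative fibres, at 0.50 (SE 0.162, adjusted p = 0.175).

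Among other cell types, smooth muscle genes were positive in 4 of 4 (median 0.45, smallest adjusted p = 0.163), with sums of 132 to 460 CPM in Sed and 292 to 729 CPM in ExT. Endothelial genes were positive in 5 of 5 (median 0.21, smallest adjusted p = 0.216), with sums of 352 to 766 CPM in Sed and 520 to 848 CPM in ExT. Nerve sheath genes were positive in 4 of 4 (median 0.63, smallest adjusted p = 0.347), with sums of 6.73 to 146 CPM in Sed and 25.8 to 197 CPM in ExT. None of these genes was called by edgeR, while 4 smooth muscle, 4 endothelial and 1 nerve gene had an unadjusted p under 0.05. All 5 fibroblast genes were negative (sums 1770 to 15260 CPM in Sed and 1916 to 6040 CPM in ExT), as were the 4 tested immune genes (26.4 to 83.1 and 29.1 to 50.2 CPM) and both tested adipocyte genes (116 to 229 and 116 to 231 CPM). Both blood genes were positive (39.0 to 148 and 41.7 to 202 CPM). Brown adipocytes also express Cox7a1. Of their 5 listed genes 3 were tested in SM and 2 were positive (−0.10 to 0.62, 0 called, smallest adjusted p = 0.295, 1 at an unadjusted p under 0.05), with sums of 41.3 to 81.3 CPM in Sed and 46.4 to 71.2 CPM in ExT. Cidea, a lipid droplet protein, was at 4.51 ± 2.38 CPM in SM_Sed and 7.196 ± 3.45 CPM in SM_ExT (SD, n = 15 each), with a fitted log2 value of 0.62 (SE 0.261, adjusted p = 0.295 by edgeR). Ucp1, the defining gene of these cells, and Elovl3 were at 0 in all 15 SM_Sed libraries, and Ucp1 was at 0.0958 CPM or less in SM_ExT.

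With the fast-fibre sum as a covariate, a setting chosen after seeing the data, the Cox7a1 log2 fold change in SM was 0.59 (SE 0.121) against 0.75 without it. With the slow-fibre sum it was likewise 0.59 (SE 0.117). In the same fits the number of genes called in SM fell from 28 to 5 and 13. The part of the other cell types in the Cox7a1 difference was not tested.

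Within the arms, muscles with more Cox7a1 had more slow-fibre and less fast-fibre RNA. Over the 30 SM libraries, on log2(CPM + 0.5) with each arm's mean removed, Cox7a1 had r = −0.71 (permutation q = 0.00042) and rho = −0.71 (q = 0.00048) with the fast-fibre sum. All q values are adjusted over 12 relations, or over 6 within a range of rat numbers. They compare r with 0, whereas the median r of the 9455 genes ranked in SM was 0.21. Cox7a1 was chosen with earlier results of these data known, so these q values describe the relations and are no independent support. Without the 2 libraries farthest from the median of that sum r was −0.64. Within rats 2 to 16 it was −0.79 (n = 14) and within rats 17 to 32 −0.73 (n = 16). With TMM-scaled values it was −0.49 (q = 0.0132).

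The slow-fibre sum gave r = 0.68 (permutation q = 0.00042) and rho = 0.68 (q = 0.00066), and r = 0.65 without the 2 farthest libraries. Its r was 0.70 within rats 2 to 16 and 0.59 within rats 17 to 32. Single myosins lay at both ends of the gene ranking: Myh7, the slow myosin, had r = 0.67 (rank 196 of 9455 genes) and Myh4, the fast glycolytic myosin, r = −0.75 (rank 9444). Mylpf, also on the fast list, had a weaker r of −0.25 (rank 8510). Myh4 weighs heavily in the fast-fibre sum: its mean in SM_Sed was 63212 CPM, where the sum had a mean of 113125 CPM.

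**Figure D3:**
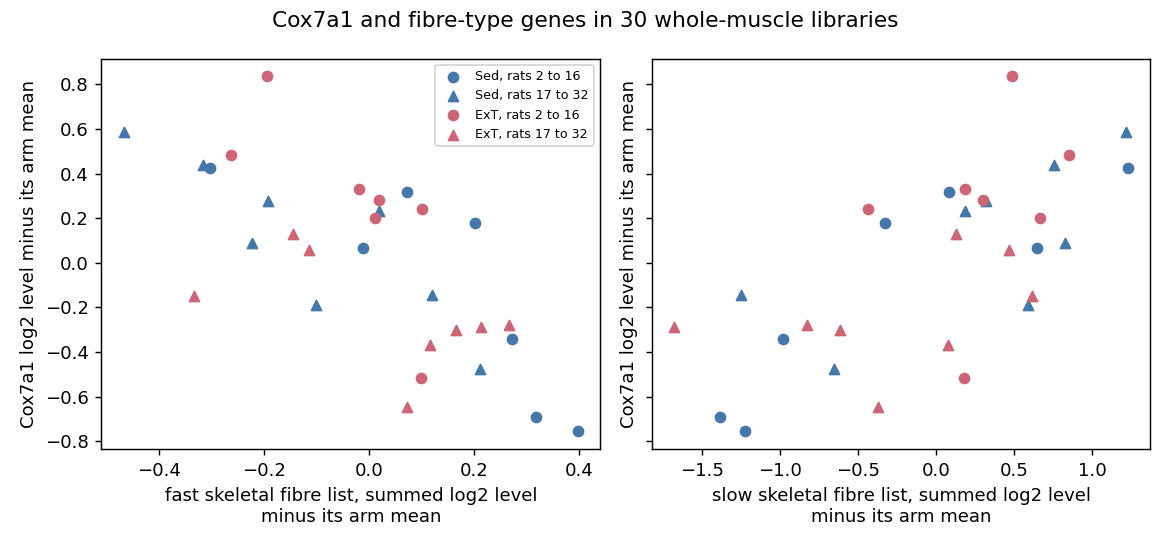
Cox7a1 log2 level against the summed log2 level of the fast-fibre list (left) and the slow-fibre list (right) in 30 SM libraries, each minus the mean of its arm; colours mark the arm and symbols the range of rat numbers. The points fall with the fast-fibre sum (r = −0.71) and climb with the slow-fibre sum (r = 0.68).

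Cox7a1 also varied with Cox7a2l and Cox6a2 in SM, as it did with many genes outside the complex. Its r was 0.62 with Cox7a2l (permutation q = 0.00088; rho = 0.61, q = 0.00232), and 0.55 without the 2 farthest libraries. That relation held within rats 2 to 16 (r = 0.67, n = 14) and not within rats 17 to 32 (r = 0.22, permutation q = 0.419, n = 16). With Cox6a2 the r was 0.54 (permutation q = 0.00684; rho = 0.53, q = 0.00990) and 0.47 without the 2 farthest, with 0.59 within rats 2 to 16. Within rats 17 to 32 (n = 16) it did not pass by Pearson's r of 0.45 (permutation q = 0.160) and passed by a rho of 0.57 (q = 0.0472). These q values compare r with 0, whereas the median r of all 9455 ranked genes with Cox7a1 in SM was 0.21. Ranks of the subunit genes ran from 386 for Cox7a2l to 4147 for Ndufa4, with Cox6a2 at 985. A link particular to complex IV was therefore not tested.

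The percent of counts on the mitochondrial genome gave r = 0.48 (permutation q = 0.0159; rho = 0.44, q = 0.0259). Without the 2 farthest libraries r was 0.38 (q = 0.0982) and rho 0.36 (q = 0.122), so the call rests on them. Within rats 2 to 16 r was 0.54 (q = 0.0543), and rho, at 0.60 (q = 0.0323), passed. Within rats 17 to 32 neither r (0.32, q = 0.265) nor rho (0.41, q = 0.167) passed. With log2 total counts r was −0.05 (permutation q = 0.784; rho = −0.02, q = 0.904). The ranges of rat numbers had opposite signs: r was 0.51 (q = 0.0630) and rho 0.60 (q = 0.0323) within rats 2 to 16, and r was −0.37 (q = 0.239) and rho −0.33 (q = 0.261) within rats 17 to 32.

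Relations in LV were taken over 14 libraries. Cox6a2 gave r = 0.57 (permutation q = 0.0614) and rho = 0.67 (q = 0.0210), and r = 0.63 (q = 0.0742) without the 2 farthest. Cox7a2l gave r = 0.34 (permutation q = 0.279) and the slow list r = 0.44 (q = 0.174). The fast list, which is near 0 in heart, gave r = −0.69 (permutation q = 0.0159) and −0.46 (q = 0.184) without the 2 farthest. With TMM-scaled values more of these passed in LV: r was −0.79 (q = 0.00420) for the fast list, 0.67 (q = 0.0189) for Cox6a2 and 0.57 (q = 0.0470) for the slow list, while Cox7a2l missed the threshold at 0.54 (q = 0.0644). As 2 of the 14 LV rats were numbered 2 to 16, no within-range value was taken there.

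The genes most like Cox7a1 in SM, of 9455 ranked by Pearson r over the 30 arm-centred libraries, were Tmem82 (r = 0.81), Oxnad1 (0.81), Art5 (0.81), Itga7 (0.80) and Twf2 (0.79). The 5th, 50th and 95th percentiles of all ranked genes were −0.38, 0.21 and 0.61. Itga7, the laminin-binding integrin of the muscle membrane, was at 100 ± 20.0 CPM in SM_Sed and 125 ± 24.0 CPM in SM_ExT. Art5, a member of the ADP-ribosyltransferase family, had r = 0.91 within rats 2 to 16 and 0.70 within rats 17 to 32. In LV the same 5 genes gave r = −0.03, 0.79, −0.61, 0.06 and 0.70.

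In LV, of 10063 genes, the closest were Tnfaip8 (r = 0.92), Tecr (0.91), Pdhx (0.91), Psma1 (0.89) and Tmem88 (0.89), with percentiles of −0.67, −0.11 and 0.62. Pdhx, the E3-binding protein of pyruvate dehydrogenase, had r = 0.57 in SM (rank 761). Among subunit genes Ndufa4, which is bound to complex IV, was nearest in LV (r = 0.79, rank 69) and Cox7a2l in SM (rank 386). These likenesses share libraries and scaling and carry no test.

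The heart exceeded the muscle of the same animal more clearly in sedentary than in trained rats. In Sed all 7 LV libraries lay above all 7 SM libraries of the same rats, and the ratio of LV to SM within a rat was 1.93 to 3.82, with a median of 2.80. In ExT 6 of 7 LV libraries lay above all SM libraries, and the ratio was 0.952 to 2.27, with a median of 1.84. Rat 14 was the animal whose heart level (8.21 CPM) was not above its muscle level (8.63 CPM). The fitted log2 fold change was 0.94 (SE 0.137) in Sed and 0.32 (SE 0.150) in ExT, and the gap between the arms corresponds to the −0.61 fitted for training in LV minus SM.

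**Figure D4:**
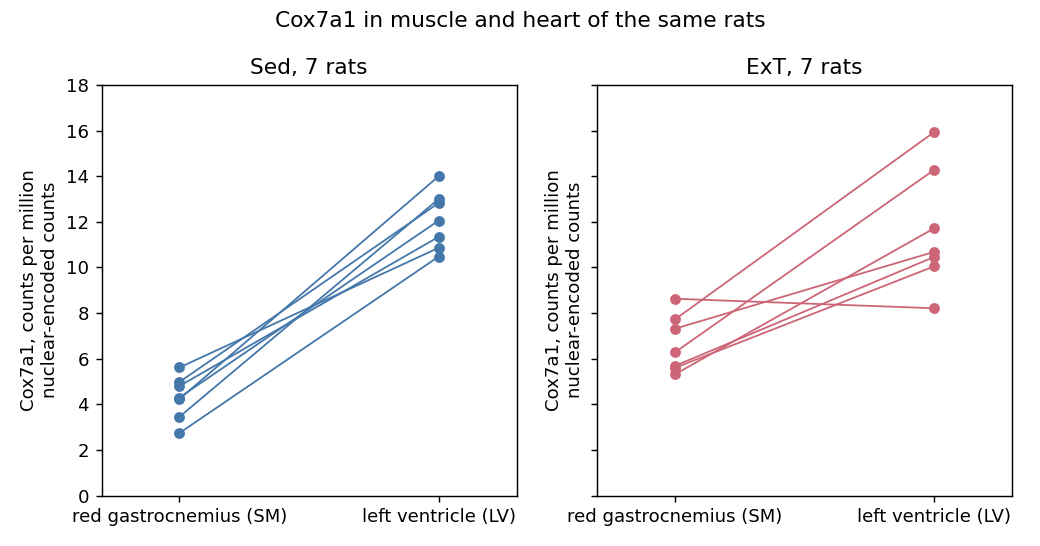
Cox7a1 in counts per 1000000 nuclear-encoded counts in SM and LV of the same rat, 1 line per rat, for 7 Sed rats (left) and 7 ExT rats (right). Every Sed line climbs from SM to LV, and 1 ExT line, of rat 14, runs from 8.63 to 8.21.

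Both paralogs were higher in heart as well. Of all genes, 78.7% were called between LV and SM in Sed and 79.3% in ExT, so a call by itself is common. Cox7a2l was higher by 0.51 (SE 0.0651, adjusted p = 6.3e-07) in Sed and 0.58 (SE 0.0866, adjusted p = 4.5e-06) in ExT on the log2 scale by edgeR, and in 7 of 7 rats of each arm. Cox7a2l2 was higher by 1.18 (SE 0.0986, adjusted p = 1.6e-09) and 1.41 (SE 0.0957, adjusted p = 6.2e-11). Per 100 Cox7a2l counts, Cox7a1 was thus above SM in Sed hearts (log2 difference 0.44) and below it in ExT hearts (−0.29). In ExT 5 of 7 LV libraries lay under every SM library on the log2 ratio with a pseudocount of 0.5, and 4 of 7 without a pseudocount.

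Of 12 subunit genes tested between LV and SM, 5 were higher and 3 lower in Sed, and 6 higher and 3 lower in ExT, by edgeR. The median was 0.07 in Sed and 0.15 in ExT, against 0.04 and 0.01 for all genes. Cox6a2 was higher by 1.65 (SE 0.112, adjusted p = 6.0e-11) in Sed and 1.92 (SE 0.134, adjusted p = 1.7e-10) in ExT. Cox6b1, a subunit on the intermembrane side, was higher by 1.03 and 1.27, and Cox6a1 by 1.00 and 1.07. Cox6c went the other way, at −1.72 and −1.56.

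The ratio of Cox6a2 to Cox6a1 was higher in heart by 0.65 in Sed and 0.87 in ExT on the log2 scale, with all 7 LV libraries above all 7 SM libraries in each arm (exact permutation test with libraries exchanged freely, p = 0.000583, the smallest it allows, q = 0.00233). Exchanging LV and SM within a rat only, a test added after seeing the data, gave p = 0.0156 in each arm, the smallest that 7 rats allow (exact permutation test, two-sided, q = 0.0625 over 8 ratio tests), so the ratio did not pass there, although it was higher in heart in 7 of 7 rats of each arm. Mt-co1 was called higher in LV in Sed (adjusted p = 0.0415 by edgeR), where with RLE factors 0 of the 3 core genes were called, and Mt-co1 and Mt-co2 were called higher in ExT. With the rat as a replicate block 2 of the 3 core genes were called in each arm. Of 18 tested assembly factors 7 were higher and 6 lower in Sed, and 7 and 7 in ExT.

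In mitochondrial libraries Cox7a1 took a larger share of nuclear-encoded counts than in whole muscle in every rat, while its paralogs took a smaller one. The within-rat ratio of MT to SM was 5.33 to 18.9 in Sed (median 9.05, 15 of 15 rats above 1) and 1.99 to 12.0 in ExT (median 5.88, 15 of 15). For Cox7a2l it was 0.148 to 0.691 in Sed (median 0.357) and 0.174 to 0.610 in ExT (median 0.348), and for Cox7a2l2 the medians were 0.107 and 0.0959. A larger share in MT was not particular to Cox7a1. The mean of Cox4i2, near that of Cox7a1 in SM_Sed, was 4.82 CPM there and 25.6 CPM in MT_Sed. It was also higher in MT_ExT than in SM_ExT. Of the 14 other subunit genes, edgeR called 11 lower and 3, with Cox4i2 among them, higher in MT in Sed. Cox7a1 made up 12.9 ± 3.29% of nuclear complex IV counts in MT_Sed and 14.01 ± 4.01% in MT_ExT. The summed level of the listed subunit genes was also far lower in MT. Its mean was 3235 CPM in SM_Sed and 303 CPM in MT_Sed, and 3556 CPM in SM_ExT and 301 CPM in MT_ExT. The percentages thus reflect the smaller sum as well as the Cox7a1 level.

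In the main fit the MT value of Cox7a1 lay below the median of the genes tested. Its log2 fold change over SM was 1.08 (SE 0.139) in Sed and 0.45 (SE 0.145) in ExT. The median of all genes tested was 1.81 and 1.31, so that Cox7a1 lay 0.73 and 0.85 below that median. The median depends on which genes pass the filter. With SM thinned to the depth of MT it was 0.42 in Sed over 11406 genes and 0.11 in ExT over 8334 genes, and Cox7a1 did not pass. Between MT and SM 94.8% of 22842 genes were called in Sed and 94.3% of 21312 in ExT. MT libraries also carried counts of genes with almost none in SM: Ucp1 had a median of 15.9 CPM in MT_Sed and 21.0 CPM in MT_ExT. Cox7b2 and Cox8c, subunit forms known from testis, had medians of 10 and 5 counts in MT_Sed and 9 and 6 in MT_ExT, with at most 1 count in any SM library. The part of this background in the MT counts of Cox7a1 was not tested.

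Most of the remaining subunit genes were lower in MT. Of 14 tested, 11 were lower and 3 higher in Sed by edgeR, with a median of −5.83, and 11 were lower and 2 higher in ExT, with a median of −5.95. Those higher were Cox7b2 and Cox8c in both arms and Cox4i2 in Sed, and with the rat as a replicate block 2 were higher in Sed. Cox7b was lowest, at −7.28 (SE 0.136, adjusted p = 8.0e-41) in Sed and −7.69 (SE 0.190, adjusted p = 4.0e-32) in ExT, and Cox6a2 was at −6.60 and −6.82. Cox7a2l was at −3.54 (SE 0.107, adjusted p = 1.1e-32) and −3.59 (SE 0.121, adjusted p = 1.1e-30).

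Mt-co1, Mt-co2 and Mt-co3 were not called in either arm between MT and SM (values −0.21 to 0.05 in Sed and 0.37 to 0.56 in ExT, 0 at an unadjusted p under 0.05, 0 by DESeq2), and with the rat as a replicate block 3 were called lower in Sed and 2 in ExT. Library totals as the scaling made the 3 higher in Sed. Of 18 tested assembly factors 16 were lower and 1, Sco2, higher in each arm, but with library totals 5 were lower and 7 higher in Sed and 5 lower and 5 higher in ExT.

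Overlap with a neighbour may bear on the Cox7a1 counts. In RefSeq GRCr8 Cox7a1 spans 22668 bases. The span of Capns1, the small calpain subunit gene, overlaps it by 248 bases, and a pseudogene, Rps24-ps2, lies inside the Cox7a1 span. The counts were made on the build mRatBN7.2, and whether its annotation holds these overlaps was not checked. The strand setting of the counting is not given in the sources used here, so reads from any such overlap cannot be assigned. Capns1 was at 138 ± 21.6 CPM in SM_Sed and 155 ± 23.6 CPM in SM_ExT, with a fitted value of 0.11 on the log2 scale (SE 0.0654, adjusted p = 0.455). It was lower in LV than in SM, at −0.86 in Sed and −0.89 in ExT, and lower in MT, at −3.90 and −3.99. Cox7a1 had positive values in all 4 comparisons. Within tissues the 2 genes varied together: Capns1 had r = 0.55 with Cox7a1 in SM (rank 899 of 9455) and 0.47 in LV (rank 1158 of 10063). The ratio of Capns1 means in SM, ExT over Sed, was 1.24 in rats 2 to 16 and 1.03 in rats 17 to 32. The part of overlapping reads in the Cox7a1 counts was not tested.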

How the data were processed

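The authors deposited 3 tables of whole-number gene counts (SM, MT and LV). The submitters' processing notes name FastQC 0.74, cutadapt 4.6, STAR 2.7.11a, HTSeq and the build mRatBN7.2; the annotation release and strand setting are not given in the sources used here. RNA was extracted with on-column DNase-I, per the labels' protocols. Groups came from sample titles. Cox7a1, the gene lists and the tests were chosen with earlier results of these data known.

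Levels used python 3.11.15, numpy 2.4.6, pandas 2.3.3 and scipy 1.17.1. Tests used edgeR 4.0.16 in R 4.3.3 (quasi-likelihood, TMM, filterByExpr, robust, Benjamini-Hochberg over all genes tested, called at an adjusted p under 0.05) on the libraries of the groups compared; DESeq2 1.42.0 was an alternative. LV was compared with SM of the 14 rats that gave LV. Log2 levels used a pseudocount of 0.5. The edgeR fits and the correlations were tested on simulated data. Named genes were Cox7a1 and its paralogs, up to 4 called subunit genes per comparison by size with a mean of at least 5 CPM, and the 5 genes most like Cox7a1 in SM and LV; Cox7a2l2, Capns1 and single fibre, marker and subunit genes named otherwise were chosen after their values were seen.

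SM, MT and LV libraries of 1 number pair by animal. Their deviations correlated at a median r of 0.0157 for MT with SM (different rats 0.00071) and 0.0498 for LV with SM. The SM library most like an MT library was that of its own rat in 2 of 30 rats. For LV this held in 6 of 14 rats. The pairing thus rests on the rat numbers in the sample titles, and the counts do not show it for MT. No 2 libraries of a group agreed within sampling noise (smallest chi-square per degree of freedom 1.20). Listed genes that were not found by symbol (Cox7a2, Cox8a, Cox8b and Cox6b2 among the subunits) are not analysed here. Alternatives changed normalization, filter, tool, block, depth and rats.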

Additional observations from a re-analysis of the deposited data

Results flagged for a closer look

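Among 36 checks of levels in the heart groups of 7 libraries, 2 had a library far from the others, where chance flags about 1 in 20. Cox5b, a zinc-binding complex IV subunit, was at 785 CPM in the LV_ExT library of rat 25, against 612 to 686 CPM in the other 6, a gap of 0.575 of the range against a critical value of 0.568. Capns1, whose RefSeq span overlaps that of Cox7a1, was at 93.7 CPM in the LV_Sed library of rat 32, against 110 to 121 CPM in the other 6, a gap of 0.614 of the range. No Cox7a1 or Cox7a2l level in heart stood apart in the same way.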

How the results depend on the processing

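In SM, genes called with training numbered 28 and became 133 with DESeq2, 396 in rats 2 to 16, 1 in rats 17 to 32, and, in settings added after seeing the data, 5 and 13 with the fast-fibre and slow-fibre sums as covariates and 1 in the rats that gave LV. The Cox7a1 log2 fold change there ran from 0.40 to 1.11. In LV it ran from −0.02 to 0.11, changing sign in rats 17 to 32. MT against SM is the comparison most open to scaling: Cox7a1 was at 1.48 with RLE, 2.75 with library totals and 1.48 with DESeq2 in Sed, and at 2.07 with library totals in ExT. Library totals moved the median of all genes to 3.41 and 2.88, and the share of calls that were higher from 65.1 to 86.1% in Sed and from 62.9 to 86.0% in ExT; between LV and SM that share moved from 50.9 to 62.7% in Sed. With SM thinned to the depth of MT, calls fell from 21648 to 10103 in Sed and from 20092 to 7109 in ExT, and Cox7a1 did not pass the filter, so depth limits it. Genes called for training in MT minus SM numbered 5, and 0 with library totals, 32 with DESeq2, 15 in rats 2 to 16 and 1 in rats 17 to 32; for LV minus SM 0, and 3 with DESeq2. The cause of these shifts was not tested.

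With the rat as a replicate block, calls for MT minus SM went from 5 to 3, and Cox7a1 was at −0.64 there, 0.95 and 0.34 for MT against SM and 0.97 and 0.33 for LV against SM in Sed and ExT. Of 18 assembly factors between LV and SM in ExT 8 were higher and 6 lower. Over all genes, a count of calls moved by more than 1.5 times in no other comparison with the block. Counts of blood, fibroblast, adipocyte and smooth muscle genes called between sample types moved by 1 gene in some comparisons. The Cox6a2 to Cox6a1 ratio between LV and SM was not called in either arm under exchange within a rat (differences 0.65 and 0.87, exact permutation q = 0.0625). Its p was the smallest that 7 rats allow, so no larger difference could have given a smaller q.

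Paralog values changed sign only where the size was small and no threshold was passed. Cox7a2l in SM was −0.082 in rats 17 to 32, −0.018 with the slow-fibre covariate and −0.042 in the rats that gave LV; in MT it was 0.16 and for MT minus SM 0.22 in rats 17 to 32. Cox7a2l2 in SM was −0.10 in rats 17 to 32, −0.010 with the fast-fibre covariate and −0.19 in the rats that gave LV, and for MT minus SM −0.056 with library totals and −0.085 in rats 2 to 16. The r of Cox7a1 with log2 total counts was 0.098 in SM and 0.0025 in LV without the 2 farthest libraries, and 0.51 in rats 2 to 16 of SM.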
